A study of Mus musculus with 24 samples.

Results

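FKBP5, PER1, ZBTB16, KLF9, DUSP1, SGK1, DDIT4, TXNIP, IRS2 and PIK3IP1 are 10 genes known in many tissues as targets of the glucocorticoid receptor. They were chosen by name, with earlier results of these data known. All 10 were found through the gene symbols of the array's probe table, among the 14884 genes that it named by a single symbol. A gene with several probe sets was represented by the one with the highest mean over the 24 arrays, which mattered only for TXNIP. The series profiled plasmacytomas grown from MM.1S, a human cell line of multiple myeloma known to respond to glucocorticoids, and asked what the kinesin spindle protein inhibitor filanesib adds to pomalidomide and dexamethasone.

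Every tumour grew under the skin of a CB17-SCID mouse, a strain without functional B and T cells, from MM.1S cells given with Matrigel. The treated groups received dexamethasone at 0.5 mg/kg, filanesib (ARRY-520) at 10 mg/kg plus dexamethasone, pomalidomide at 8 mg/kg plus dexamethasone, all 3 drugs, filanesib alone, pomalidomide alone, or filanesib plus pomalidomide, at the same doses. Drugs were injected intraperitoneally for 2 days, and the interval between the last dose and the removal of the tumour is not stated in the labels. The control group had vehicle (PBS) per the treatment protocol, while its own label says that it was not treated. Each of the 8 groups held 3 arrays, so that dexamethasone was present in 12 arrays and absent from 12. No label says that each array came from a separate mouse, and the p-values therefore cover the spread between arrays, which may in part be technical. All tumours came from 1 cell line, and the mouse's age was not given in the labels.

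A glucocorticoid such as dexamethasone enters the cell and binds the receptor NR3C1, which an HSP90 chaperone complex holds ready in the cytoplasm. The receptor then moves to the nucleus and raises the transcription of target genes at DNA elements that it recognises, while it lowers many inflammatory genes through other transcription factors. In lymphoid and myeloma cells the same receptor leads to growth arrest and death, which is why dexamethasone is part of most myeloma regimens. Several of its targets act back on the hormone's own signal, and others slow growth or the use of glucose. Most of them also answer to stress, insulin, growth factors or the circadian clock, and these do not read the receptor alone.

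Values are log2 expression levels after RMA, the authors' summary of the probes of each probe set, so a difference of 1 is a doubling of the signal. The 24 arrays had medians between 3.65 and 3.73 and correlated with each other at 0.951 to 0.990 across genes. Replicates 1 and 3 of pomalidomide alone stood apart, with SDs of deviations from the group mean over all genes of 0.23 and 0.29, against 0.19 for replicate 2 and 0.13 to 0.18 for the arrays of the other groups. Of 7 measured plasma cell markers, 6 (SDC1, CD38, XBP1, IRF4, SLAMF7 and MZB1) averaged above the median gene level of 4.78, as the label plasmacytoma implies, and CD27 averaged 4.15. Markers of macrophages, endothelium, fibroblasts, adipocytes and neutrophils averaged 4.83 or less, apart from CD68 at 9.49 and ESAM at 7.16. The mean of the 6 macrophage markers was 4.30 to 4.67 with dexamethasone and 4.25 to 4.65 without it, and none of the measured markers passed the test for dexamethasone. The 6 endothelial markers moved apart, with PECAM1 at -0.34 ± 0.091, ESAM at -0.25 ± 0.087, EMCN at -0.077 ± 0.052, VWF at -0.074 ± 0.062, CLDN5 at 0.019 ± 0.083 and KDR at 0.16 ± 0.064, and their part in the results was not tested. The probes are human and the host was a mouse, so low marker values do not show how many host cells were present. In such bulk tissue a smaller number of tumour cells and less RNA per cell cannot be told apart.

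Dexamethasone changed none of the 10 genes past the threshold. Averaged over the 4 drug backgrounds, which sets the 12 arrays with dexamethasone against the 12 without, 9 of the 10 differences were above 0 and 1 was below it, and none was larger than 0.31 on the log2 scale. The largest were those of IRS2, at 0.31 ± 0.12 (SE), and DDIT4, at 0.28 ± 0.15. TXNIP followed at 0.17 ± 0.083 and FKBP5 at 0.16 ± 0.083. The other 6 lay between -0.060 ± 0.11 for PIK3IP1 and 0.071 ± 0.10 for KLF9. Both of the largest averages were uneven over the backgrounds. The IRS2 difference was 0.73 beside pomalidomide and 0.11 to 0.26 in the other backgrounds. That of DDIT4 was 0.75 beside filanesib plus pomalidomide and -0.016 to 0.23 in the others. With limma's array weights DDIT4 averaged 0.10, below IRS2, TXNIP and FKBP5, and without replicates 1 and 3 of pomalidomide alone FKBP5 averaged 0.10. Over the alternative settings other than omissions of 1 array, IRS2 averaged 0.22 to 0.31.

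By limma with Benjamini-Hochberg adjustment over all genes, 0 of the 10 passed an adjusted p of 0.05, and over all 14884 genes 0.0134% passed, which is 2 genes. These were CLU, lower by 0.55, and the microRNA gene MIR876, lower by 0.35, both named here after their values were seen. At an unadjusted p under 0.05 the members numbered 2, TXNIP and IRS2, against 7.68% of all genes. A difference above 0 was found for 49.6% of all genes, and the median difference was 0.068 over the 10 genes and -0.00054 over all genes. The 10 genes were read on the same arrays and are not independent of each other, so the count of 9 describes these tumours and is not a test.

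**Figure D1:**
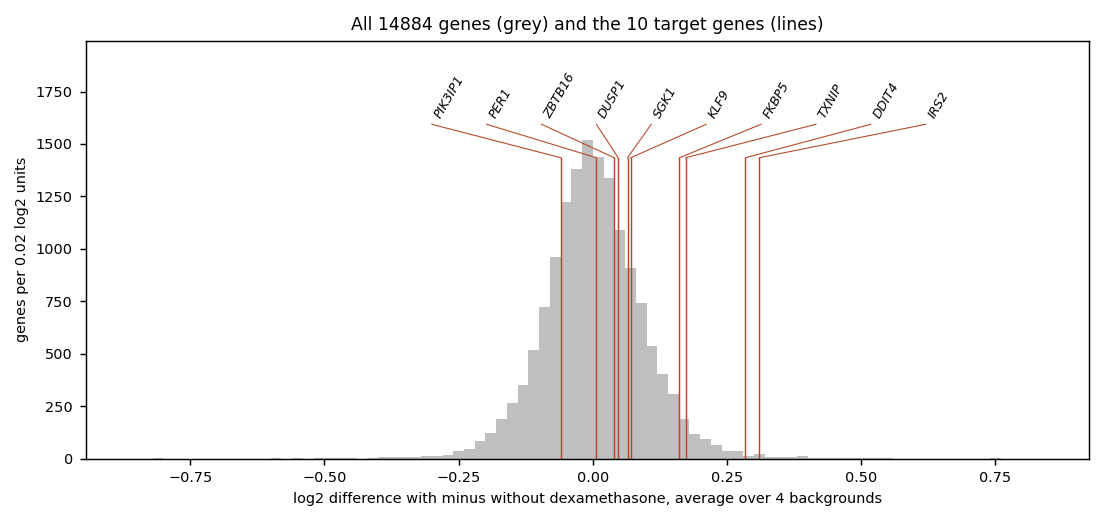
Histogram of the log2 difference with minus without dexamethasone, averaged over the 4 drug backgrounds, for all 14884 genes (grey), with a labelled line for each of the 10 glucocorticoid receptor targets. The 10 lie between -0.060 and 0.31, within the range of all genes (-0.82 to 0.75), and 9 of them are right of 0.

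The width of the intervals sets what these arrays could have shown. The unadjusted 95% interval of FKBP5 ran from 0.993-fold to 1.26-fold, and that of PER1 from 0.885-fold to 1.14-fold. For ZBTB16 it ended at 1.11-fold, for SGK1 at 1.15-fold and for KLF9 at 1.22-fold. DDIT4 had the widest, from 0.989-fold to 1.5-fold. The upper end was therefore at or below 1.5-fold for each of the 10 genes as an average over backgrounds, while in a single background, with 3 arrays against 3, it reached 2.55-fold for DDIT4. A missed threshold does not show that a gene was the same with and without dexamethasone, and RMA is known to compress fold changes.

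**Figure D2:**
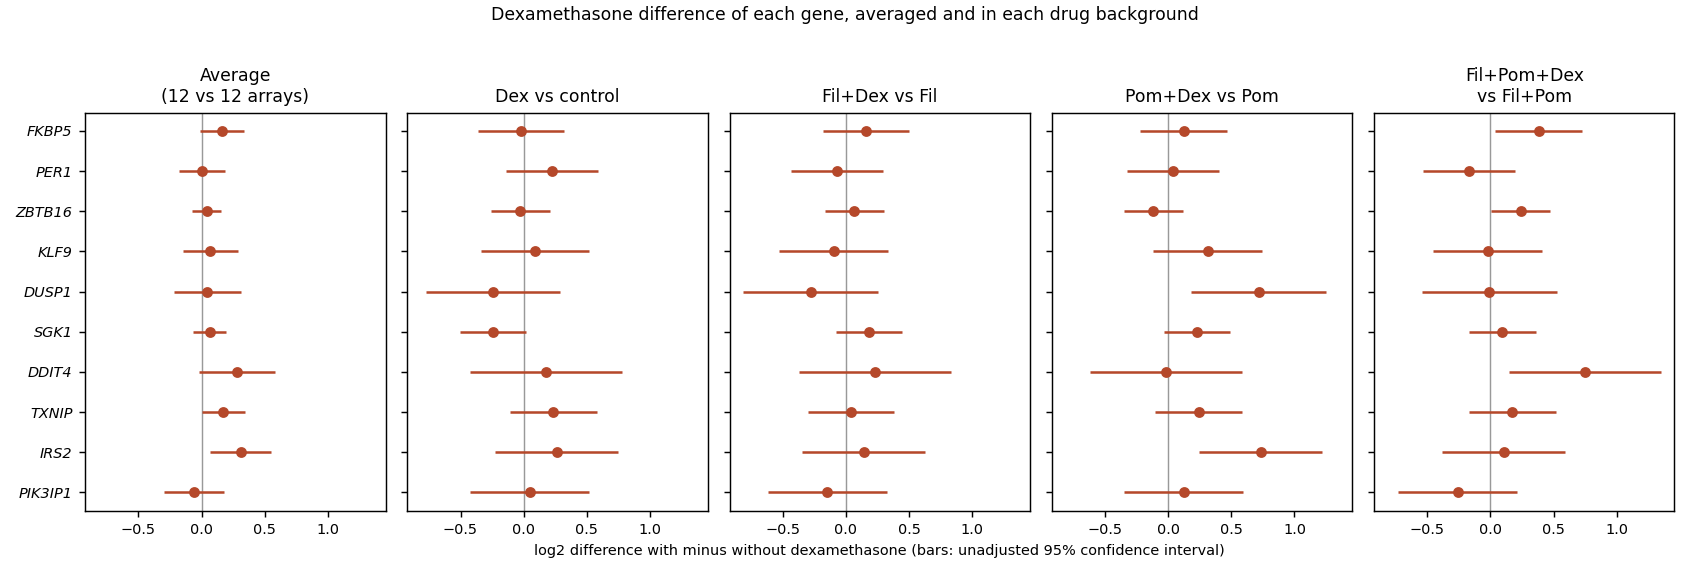
Log2 difference with minus without dexamethasone for each of the 10 genes, as the average over 12 against 12 arrays and in each of the 4 drug backgrounds (3 against 3), with unadjusted 95% confidence intervals. The averages sit between -0.060 and 0.31, while in single backgrounds the points spread from -0.28 for DUSP1 beside filanesib to 0.75 for DDIT4 beside filanesib plus pomalidomide.

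FKBP5 (probe set 17018497) encodes a co-chaperone of HSP90 that lowers the receptor's affinity for hormone and is widely used as a readout of receptor activity. The 3 arrays with dexamethasone alone read 5.30, 5.44 and 5.63, against 5.57, 5.17 and 5.68 in control. Beside filanesib they read 5.69, 5.51 and 5.74 with dexamethasone and 5.59, 5.17 and 5.71 without it. In both of these backgrounds the groups overlapped, and the differences were -0.020 ± 0.17 and 0.16 ± 0.17. Pomalidomide plus dexamethasone gave 5.28, 5.50 and 5.31, against 4.86, 5.48 and 5.38 with pomalidomide alone. The triple combination gave 5.70, 6.09 and 5.81, against 5.50, 5.37 and 5.57 with filanesib plus pomalidomide. All 3 arrays of the triple combination were above all 3 of filanesib plus pomalidomide, by 0.38 ± 0.17 on average, which did not pass after adjustment over all genes (adjusted p = 0.999). Its group means ran from 5.24 ± 0.33 (SD, n = 3) with pomalidomide alone to 5.87 ± 0.20 with all 3 drugs.

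DUSP1 (probe set 17002846) encodes a phosphatase that switches off the MAP kinases p38, JNK and ERK and is one of the receptor's early anti-inflammatory targets. It read 8.02, 7.83 and 7.16 with dexamethasone alone, against 8.17, 7.93 and 7.63 in control, and 7.29, 7.47 and 7.23 with filanesib plus dexamethasone, against 7.47, 7.89 and 7.47 with filanesib. Dexamethasone groups averaged lower in both backgrounds, with differences of -0.24 ± 0.26 and -0.28 ± 0.26, and the arrays overlapped. With pomalidomide plus dexamethasone it read 7.54, 9.03 and 8.00, against 7.33, 7.59 and 7.50 with pomalidomide alone. That difference of 0.72 ± 0.26 came with overlapping arrays (adjusted p = 0.358) and was 0.30 without replicate 2 of pomalidomide plus dexamethasone, whose 9.03 was the highest DUSP1 value of the 24 arrays. Triple-treated tumours read 7.45, 7.81 and 7.26, against 7.29, 7.65 and 7.60 with filanesib plus pomalidomide, and the 2 groups covered much the same range.

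PER1 (probe set 16840846) encodes a repressor of the circadian clock through which glucocorticoids can reset clock time in peripheral tissue. Its arrays read 6.22, 6.14 and 7.02 with dexamethasone alone, against 6.22, 6.05 and 6.42 in control. They read 6.02, 5.86 and 5.73 with filanesib plus dexamethasone, against 5.82, 6.08 and 5.92 with filanesib. Replicate 3 of dexamethasone alone, at 7.02, was the highest PER1 value of the 24 arrays, and the other two of that group lay within the range of control. Values were 6.14, 6.19 and 6.21 with pomalidomide plus dexamethasone, against 6.14, 6.48 and 5.81 with pomalidomide, and 6.12, 6.19 and 6.30 with the triple combination, against 6.33, 6.37 and 6.43 with filanesib plus pomalidomide. In the last pair all 3 dexamethasone arrays were lower, with a mean difference of -0.17 ± 0.18 (adjusted p = 0.999). Averaged over the 4 backgrounds the difference was 0.0066 ± 0.088, and its sign turned when replicate 3 of dexamethasone alone was omitted (-0.064).

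ZBTB16 (probe set 16731441), also known as PLZF, encodes a zinc finger transcription repressor that glucocorticoids raise strongly in several tissues. It read 3.70, 3.55 and 3.62 with dexamethasone alone, against 3.54, 3.55 and 3.86 in control, and 3.57, 3.64 and 3.54 with filanesib plus dexamethasone, against 3.51, 3.50 and 3.54 with filanesib. Beside pomalidomide its arrays read 3.47, 3.64 and 3.61 with dexamethasone and 3.47, 3.70 and 3.90 without it. Every ZBTB16 value of the 24 arrays lay between 3.45 and 3.92, around the medians of whole arrays (3.65 to 3.73), where RMA values of weak or absent transcripts also lie. The triple combination gave 3.70, 3.73 and 3.92, all above the 3.45, 3.55 and 3.63 of filanesib plus pomalidomide. This difference, 0.24 ± 0.11, had an adjusted p of 0.999, and the average over backgrounds was 0.040 ± 0.056.

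KLF9 (probe set 17094761) encodes a Krüppel-like transcription factor that the receptor induces directly in many cells and that can itself repress other targets. Its 3 arrays of dexamethasone alone read 4.61, 4.63 and 5.42, against 4.42, 4.67 and 5.30 in control. With filanesib plus dexamethasone they read 4.42, 4.71 and 4.51, against 4.43, 4.45 and 5.06 with filanesib. In dexamethasone, control and filanesib alone replicate 3 stood above the other two by more than any dexamethasone difference of KLF9 in a single background. Pomalidomide plus dexamethasone gave 5.16, 5.11 and 5.02, all above the 4.87, 4.86 and 4.63 of pomalidomide alone, a difference of 0.31 ± 0.21 (adjusted p = 0.654). Values of 5.03, 4.92 and 5.16 with the triple combination overlapped those of 5.0, 4.92 and 5.25 with filanesib plus pomalidomide. The average difference for dexamethasone was 0.071 ± 0.10 over all arrays.

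**Figure D3:**
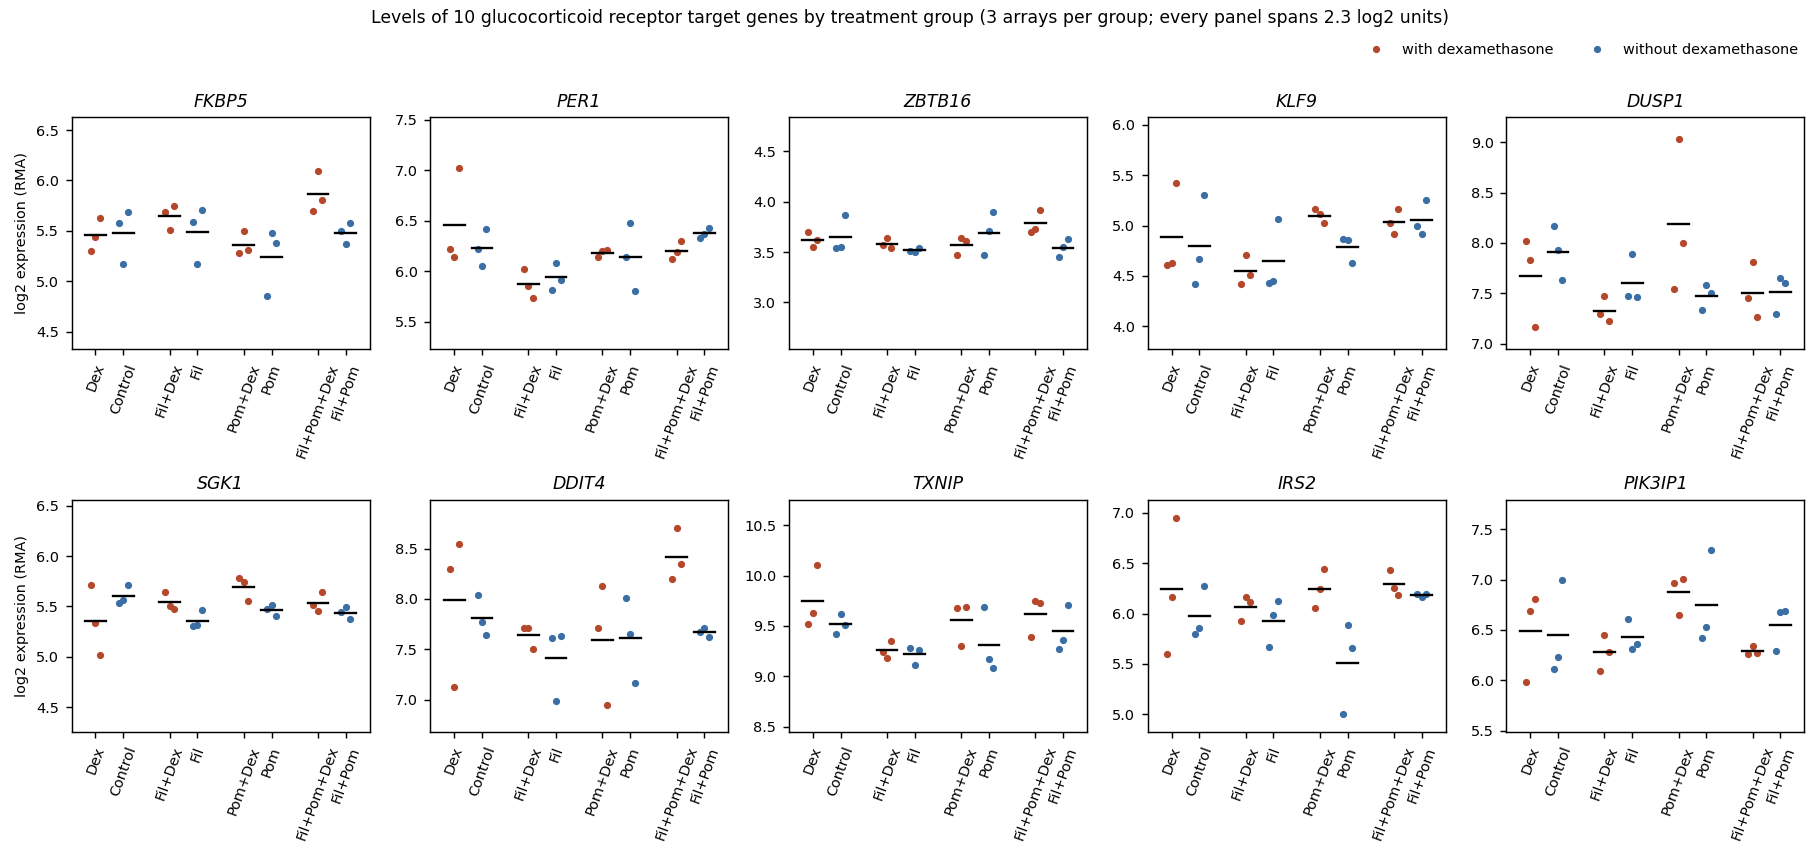
Log2 expression (RMA) of each of the 10 genes in the 24 arrays by treatment group, as single arrays (points) with the group mean (bar), each dexamethasone group left of its group without dexamethasone. Groups overlap in most pairs, and single arrays such as DUSP1 at 9.03 with pomalidomide plus dexamethasone and PER1 at 7.02 with dexamethasone alone stand apart from their groups.

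SGK1 (probe set 17023810) encodes a kinase that was first described as induced by serum and glucocorticoids and that promotes cell survival. With dexamethasone alone it read 5.71, 5.34 and 5.02, against 5.53, 5.56 and 5.71 in control. The dexamethasone group averaged lower here, with a difference of -0.25 ± 0.13, and its arrays spread from 5.02 to 5.71, more widely than those of control. With filanesib plus dexamethasone it read 5.65, 5.50 and 5.48, against 5.30, 5.32 and 5.46 with filanesib, and with pomalidomide plus dexamethasone 5.78, 5.74 and 5.56, against 5.47, 5.52 and 5.41 with pomalidomide. In both pairs the 3 dexamethasone arrays were above the 3 others, by 0.18 ± 0.13 and 0.23 ± 0.13 (adjusted p = 0.948 and 0.581). Triple-treated arrays read 5.51, 5.45 and 5.64, against 5.44, 5.49 and 5.38 with filanesib plus pomalidomide, and overlapped them.

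DDIT4 (probe set 16705961), also known as REDD1, encodes an inhibitor of mTORC1 that glucocorticoids, low oxygen and DNA damage induce. It read 8.30, 7.13 and 8.54 with dexamethasone alone, against 8.04, 7.77 and 7.64 in control, and 7.71, 7.71 and 7.51 with filanesib plus dexamethasone, against 7.61, 6.99 and 7.64 with filanesib. Replicate 2 of dexamethasone alone was below all control arrays and replicates 1 and 3 were above them. With pomalidomide plus dexamethasone it read 7.71, 8.12 and 6.95, against 8.01, 7.66 and 7.17 with pomalidomide, and the groups overlapped. The triple combination read 8.20, 8.70 and 8.35, all above the 7.68, 7.71 and 7.62 of filanesib plus pomalidomide. At 0.75 ± 0.29, or 1.68-fold, this was the largest dexamethasone difference of any member in a single background, with an adjusted p of 0.999.

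TXNIP (probe set 16669796) encodes an arrestin-like protein that binds thioredoxin and restrains the uptake of glucose. Its arrays read 9.52, 9.63 and 10.11 with dexamethasone alone, against 9.42, 9.62 and 9.51 in control, and 9.24, 9.18 and 9.35 with filanesib plus dexamethasone, against 9.28, 9.11 and 9.26 with filanesib. They read 9.68, 9.30 and 9.69 with pomalidomide plus dexamethasone, against 9.69, 9.17 and 9.09 with pomalidomide, and 9.39, 9.75 and 9.73 with the triple combination, against 9.28, 9.36 and 9.71 with filanesib plus pomalidomide. The dexamethasone group had the higher mean in all 4 pairs, by 0.042 to 0.24, and the arrays overlapped in each. The average of 0.17 ± 0.083 had an interval of 0.0025 to 0.34 before adjustment and an adjusted p of 0.651. A second TXNIP probe set, 17117443, averaged 4.62, below the median gene level of 4.78, and differed by -0.033 ± 0.18. With an SE of that size it does not settle the direction.

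IRS2 (probe set 16780917) encodes an adaptor that links the insulin and IGF1 receptors to PI3 kinase. It read 5.60, 6.17 and 6.95 with dexamethasone alone, against 5.80, 5.86 and 6.28 in control, and 5.92, 6.16 and 6.11 with filanesib plus dexamethasone, against 5.67, 5.98 and 6.13 with filanesib. Dexamethasone arrays overlapped the others in both pairs, and those of dexamethasone alone spread from 5.60 to 6.95. With pomalidomide plus dexamethasone it read 6.05, 6.25 and 6.44, all above the 5.0, 5.88 and 5.66 of pomalidomide alone, and with the triple combination 6.43, 6.26 and 6.19, against 6.19, 6.16 and 6.20 with filanesib plus pomalidomide. The difference beside pomalidomide was 0.73 ± 0.24, or 1.66-fold, with an adjusted p of 0.295, and it was 0.48 without replicate 1 of pomalidomide alone and 0.36 without replicates 1 and 3. Over the 4 backgrounds IRS2 averaged 0.31 ± 0.12, with an unadjusted interval of 0.067 to 0.55, the smallest p of the 10 genes and an adjusted p of 0.575.

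PIK3IP1 (probe set 16934045) encodes a membrane protein that inhibits PI3 kinase. It read 5.98, 6.69 and 6.81 with dexamethasone alone, against 6.11, 6.23 and 7.0 in control, and 6.10, 6.45 and 6.28 with filanesib plus dexamethasone, against 6.61, 6.31 and 6.36 with filanesib. Beside pomalidomide its arrays read 6.96, 6.64 and 7.01 with dexamethasone and 6.42, 6.53 and 7.29 without it, and in the triple combination 6.26, 6.34 and 6.27, against 6.29, 6.68 and 6.69 with filanesib plus pomalidomide. The groups overlapped in all 4 pairs, with 2 differences above 0 and 2 below, and the average was -0.060 ± 0.11.

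Counted by background, no member passed limma's adjusted threshold in any pair. For dexamethasone against control 0 of 10 passed, against 0.00672% of all genes, 0 of 10 had an unadjusted p under 0.05, against 3.9%, and 6 of 10 differences were above 0, against 45.4%. There 0 members had all 3 dexamethasone arrays above or below the control arrays, against 3.94% of genes that were higher and 6.05% that were lower without overlap. Beside filanesib 0 of 10 passed, against 0.00672% of genes, 0 of 10 had an unadjusted p under 0.05, against 5.39%, and 6 of 10 differences were above 0, against 48.3%. SGK1 was the 1 member higher without overlap in that pair, against 5.95% of genes, and 0 were lower, against 7.05%.

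Beside pomalidomide 0 of 10 passed, against 0.00672% of genes, 2 had an unadjusted p under 0.05 (DUSP1 and IRS2), against 9.56%, and 3 were higher without overlap (KLF9, SGK1 and IRS2), against 6.5%. In that pair 0 were lower without overlap, against 3.98%, and 8 of 10 differences were above 0, against 55.7%. Without replicates 1 and 3 of pomalidomide alone, which leaves 1 array there that is assumed to vary like the other groups, the differences of FKBP5 and PER1 were below 0, at -0.12 ± 0.21 and -0.29 ± 0.23. Those of IRS2 (0.36 ± 0.30), DUSP1 (0.61 ± 0.37), SGK1 (0.18 ± 0.18), KLF9 (0.24 ± 0.30) and TXNIP (0.38 ± 0.21) kept their sign. Beside filanesib plus pomalidomide 0 of 10 passed and 0% of all genes did, 3 had an unadjusted p under 0.05 (FKBP5, ZBTB16 and DDIT4), against 4.71%, and the same 3 were higher without overlap, against 5.62%. PER1 was the 1 member lower without overlap there, against 7.07% of genes, and 6 of 10 differences were above 0, against 49.6%. TXNIP and IRS2 were the 2 of 10 members with a difference above 0 in all 4 backgrounds, against 7.68% of genes, and 5 of 10 (also FKBP5, SGK1 and DDIT4) had one in at least 3, against 32.3%. Members without overlap thus differed between backgrounds, and SGK1 was the only one so placed in more than 1 of them.

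The difference of these backgrounds was itself tested. For the change that pomalidomide made to the dexamethasone difference, 0 of 10 members and 0% of all genes passed, and 1 member had an unadjusted p under 0.05, against 5.52% of genes. That was DUSP1, at 0.62 ± 0.26 with an adjusted p of 0.878, and 0.41 without replicate 2 of pomalidomide plus dexamethasone. For the change that filanesib made, again 0 of 10 members and 0% of all genes passed, and 0 members had an unadjusted p under 0.05, against 4.34% of genes. DDIT4, at 0.41 ± 0.29, was 0.20 without replicate 2 of dexamethasone alone, and the smallest p was that of ZBTB16, at 0.23 ± 0.11 (adjusted p = 0.9997). None of the 10 genes was therefore shown to answer to dexamethasone differently in one background than in another.

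Between the triple combination and pomalidomide plus dexamethasone, the comparison that adds filanesib to both partner drugs, 4 of 10 members had an unadjusted p under 0.05, against 7.29% of genes, 0 passed after adjustment, against 0.00672%, and 6 of 10 differences were above 0, against 46.4%. DDIT4 was higher by 0.82 ± 0.29, or 1.76-fold, with all 3 triple-treated arrays above all 3 others (adjusted p = 0.454), and by 0.50 without replicate 3 of pomalidomide plus dexamethasone. FKBP5 was higher by 0.50 ± 0.17 in the same way (adjusted p = 0.391), and so was ZBTB16 by 0.21 ± 0.11 (adjusted p = 0.729), which makes 3 members higher without overlap, against 7.22% of genes. PIK3IP1 was the 1 member lower without overlap, at -0.58 ± 0.23 (adjusted p = 0.519), against 8.53% of genes. DUSP1 differed by -0.68 ± 0.26 with overlapping arrays, and by -0.27 without replicate 2 of pomalidomide plus dexamethasone.

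Filanesib on its own account also left all 10 genes short of the threshold. As an average over backgrounds 0 of 10 passed, against 1.4% of all genes, 3 had an unadjusted p under 0.05, against 11.7%, and 3 of 10 differences were above 0, against 49.2%. FKBP5 was higher by 0.24 ± 0.083 (adjusted p = 0.208), where the dexamethasone average was 0.16 ± 0.083. DUSP1 was lower, at -0.32 ± 0.13 (adjusted p = 0.3), and so was PIK3IP1, at -0.25 ± 0.11 (adjusted p = 0.383). Against control, filanesib alone gave 9 of 10 differences below 0, and the 1 above 0, against 49.4% of genes, was that of FKBP5 at 0.014 ± 0.17. In that pair SGK1, DDIT4 and TXNIP were the 3 members lower without overlap, and 0 were higher, against 5.2% and 5.62% of genes, while 0 of 10 members and 0% of genes passed, and 0 members had an unadjusted p under 0.05, against 3.94%.

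Filanesib plus dexamethasone against dexamethasone alone averaged lower for 8 of the 10 genes, with 0 past the threshold, against 0.0202% of genes, and 2 at an unadjusted p under 0.05, against 5.73%. The differences of 2 members were above 0, against 51.8% of genes. The 2 with the small p were PER1, at -0.59 ± 0.18 (adjusted p = 0.472), and TXNIP, at -0.49 ± 0.17 (adjusted p = 0.58). They were also the 2 members lower without overlap, against 4.66% of genes, and 0 were higher, against 7.06%. Without replicate 3 of dexamethasone alone, the differences were nearer 0, at -0.31 for PER1 and -0.31 for TXNIP. FKBP5 and SGK1 were the 2 with a difference above 0 in this pair, at 0.19 ± 0.17 and 0.18 ± 0.13.

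Pomalidomide averaged higher in 9 of 10 members, against 47.5% of all genes, with 0 past the threshold, against 4.86% of genes, and 1 at an unadjusted p under 0.05, against 17.3%. That member was KLF9, at 0.27 ± 0.10 with an adjusted p of 0.148. KLF9 passed when replicate 3 of control was omitted (0.34, adjusted p = 0.0431) or replicate 3 of dexamethasone alone (0.34, adjusted p = 0.0324), the arrays in which it was highest for their groups. Against control, pomalidomide alone placed DUSP1 (-0.44 ± 0.26) and SGK1 (-0.14 ± 0.13) lower without overlap, 2 members against 9.06% of genes, and 0 higher, against 6.57%. In that pair 2 of 10 differences were above 0, against 45.6%, with 0 of 10 past the threshold, against 1.98%, and 0 at an unadjusted p under 0.05, against 16.5%. That comparison shares its control arrays with those of filanesib and of dexamethasone. Beside dexamethasone, SGK1 was higher with pomalidomide by 0.34 ± 0.13 (adjusted p = 0.66), the 1 member at an unadjusted p under 0.05, against 5.54% of genes, and 0 passed, against 0.0269%. Without replicate 3 of dexamethasone alone this SGK1 difference was 0.17, with an unadjusted p of 0.178 by limma, and without replicate 1 it was 0.51. There 5 of 10 differences were above 0, against 53.6% of genes, and 0 members were higher or lower without overlap, against 6.86% and 4.35%.

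Ordered by group mean, no gene separated its 8 groups: in each of the 10 genes the arrays of all 7 pairs of neighbouring groups overlapped. The triple combination stood highest for FKBP5, ZBTB16, DDIT4 and IRS2, and pomalidomide plus dexamethasone for KLF9, DUSP1, SGK1 and PIK3IP1. Dexamethasone alone stood highest for PER1 and TXNIP. A group with dexamethasone thus had the highest mean for all 10 genes, against 44.8% of all genes, a count made after the values were seen and without a test. A group with dexamethasone also had the lowest mean for 5 of the 10, against 43.7%: filanesib plus dexamethasone for PER1, KLF9, DUSP1 and PIK3IP1, and dexamethasone alone for SGK1. The range of group means was smallest for ZBTB16 and largest for DDIT4.

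The genes varied between arrays of 1 group to unequal degrees. The SD within groups, pooled over the 8 groups, was 0.41 for DDIT4, 0.36 for DUSP1, 0.33 for IRS2 and 0.32 for PIK3IP1, and each of these was at or above that of 95.4% of all genes. It was 0.28 for KLF9, 0.23 for PER1, and 0.22 for both FKBP5 and TXNIP, against a median of 0.18 over all genes. SGK1, at 0.15, and ZBTB16, at 0.12, varied less than the median gene. Replicate 3 of dexamethasone alone was the highest of its group for 7 of the 10 members (FKBP5, PER1, KLF9, DDIT4, TXNIP, IRS2 and PIK3IP1) and the lowest for DUSP1 and SGK1, while it was the highest of its group for 32.5% of all genes. Without that array the dexamethasone average was 0.22 for IRS2, 0.22 for DDIT4, 0.13 for TXNIP, 0.14 for FKBP5, 0.0035 for KLF9 and 0.11 for both DUSP1 and SGK1. Replicate 3 of control was likewise the highest for 7 members, against 39.6% of all genes, and replicate 3 of filanesib plus pomalidomide for 7, against 34.4%. For replicate 3 of filanesib alone it was 6, against 31.5%, and in the remaining groups replicate 3 was the highest for 2 to 4 members. Over all genes the replicate numbers were not found to link arrays across groups, which cannot exclude a link. A link within the 10 members was not tested.

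**Figure D4:**
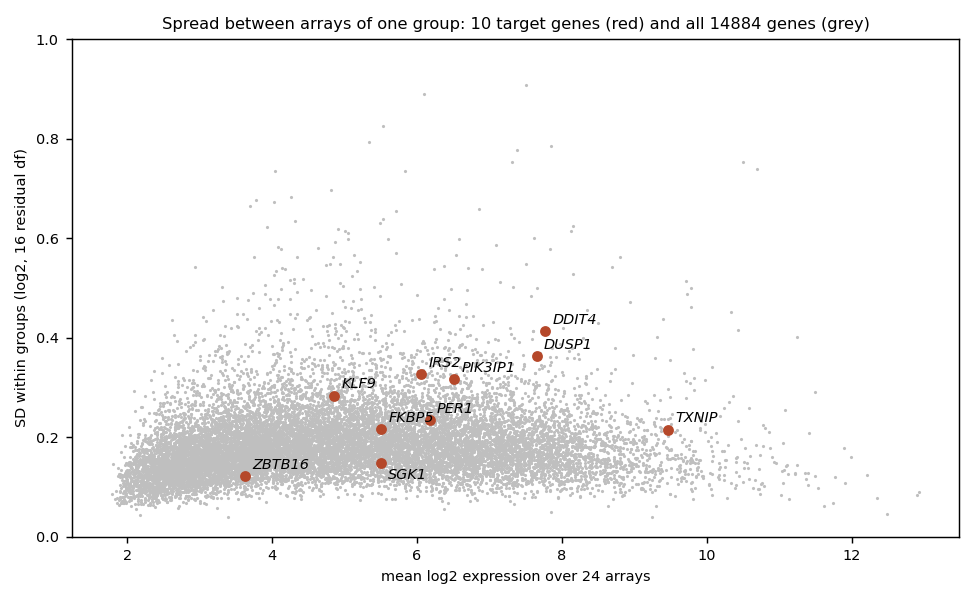
SD within groups (log2 units, 16 residual degrees of freedom) against mean log2 expression over 24 arrays for all 14884 genes (grey) and the 10 glucocorticoid receptor targets (red, labelled). DDIT4, DUSP1, IRS2 and PIK3IP1 lie above most genes, between 0.32 and 0.41, and SGK1 and ZBTB16 lie in its lower part.

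Other genes of the pathway were read from lists of known members. Of 12 genes of the receptor, its chaperones and hormone handling, 5 were measured. For the dexamethasone average 0 of them passed, against 0.0134% of all genes, with a median difference of 0.078. NR3C1 itself and TSC22D3 (GILZ), another standard target, had no probe set named by their symbol alone and were not analysed here. HSD11B2, which inactivates cortisol, differed by 0.083 ± 0.059, H6PD, which supplies the cofactor of HSD11B1, by 0.078 ± 0.073, and the co-chaperone STIP1 by -0.059 ± 0.071. Of 10 receptor coregulators 6 were measured and 0 passed, against 0.0134% of all genes. All 6 differences were above 0, against 49.6% of all genes, with a median of 0.14. The coactivators NCOA1 (0.23 ± 0.092), CREBBP (0.21 ± 0.088) and NCOA2 (0.14 ± 0.085) had the smallest p of that list, with adjusted p of 0.59, 0.621 and 0.704 by limma.

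Among 46 further genes that glucocorticoids are known to induce, 27 were measured and 0 passed, against 0.0134% of all genes. Of the 27, 16 were above 0 and 11 below, against 49.6% of all genes above 0, and the median was 0.026. Those with the smallest p were PCK1, an enzyme of gluconeogenesis (-0.15 ± 0.067), MTHFD1L, an enzyme of folate metabolism (0.16 ± 0.079), and BCL6, a transcription repressor of germinal centre B cells (0.16 ± 0.083). PCK1 averaged 3.11 with dexamethasone alone and 3.45 in control, below the array medians of 3.65 to 3.73, where values of weak or absent transcripts also lie. Of the inflammatory genes that the receptor is known to lower, 17 of 20 were measured, 0 passed, 14 were below 0 and the median was -0.068. Over all 14884 genes, 0.0134% passed and 7498 differences were below 0. The chemokine CXCL10 differed by -0.82 ± 0.23 (adjusted p = 0.396), the chemokine CCL4 by -0.33 ± 0.11 (adjusted p = 0.531), and RELB, a subunit of NF-kappaB, by -0.13 ± 0.053 (adjusted p = 0.59). The 7 death and survival genes were all measured and 0 passed, against 0.0134% of all genes. BCL2L11, which encodes BIM, the BH3-only protein known for glucocorticoid-induced death of lymphoid cells, differed by 0.35 ± 0.11 (adjusted p = 0.457), its relative BMF by 0.18 ± 0.071 and the survival gene BCL2L1 by -0.063 ± 0.058.

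Relatives of the members gave a similar picture. Of 25 paralogues and clock partners 20 were measured and 0 passed for dexamethasone, against 0.0134% of all genes. Of the 20, 11 were above 0 and 9 below, against 49.6% of all genes above 0, with a median of 0.014. ARRDC3, an arrestin of the family of TXNIP, differed by 0.38 ± 0.17 (adjusted p = 0.641), and the paralogues of PER1 by 0.14 ± 0.076 for PER2 and 0.10 ± 0.061 for PER3. At an unadjusted p under 0.05 in either direction the lists held 0 of 5 genes of hormone handling, 2 of 6 coregulators, 2 of 27 other induced genes, 6 of 17 inflammatory genes, 2 of 7 death and survival genes and 1 of 20 relatives, against 7.68% of all genes. Of the 6 inflammatory genes 5 were lower and 1 was higher, and of the 2 other induced genes 1 was higher and 1 lower. The coregulators, death and survival genes and relatives so counted were higher. In both tests of a change in the dexamethasone difference by another drug, no gene of these lists passed, as no gene of the array did.

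The same lists did hold genes that pomalidomide changed, where 4.86% of all genes passed as an average. HSD11B1, which turns inactive cortisone into cortisol, rose by 0.90 (adjusted p = 0.00209) and was the 1 of 5 called in its list. Of the 27 other induced genes 2 rose, BCL6 by 0.31 and RHOB by 0.29, and of the 17 inflammatory genes 3 rose, CXCL10 by 1.94, ICAM1 by 0.45 and TNF by 0.24. BMF rose by 0.40, the 1 of 7 death and survival genes, and 4 of 20 relatives rose, DUSP10 by 0.31, DUSP4 by 0.32, IRS1 by 0.40 and KLF6 by 0.26. These 11 genes were named after their values were seen, and the values are averages over 4 backgrounds that were not alike. Against control, pomalidomide alone differed by -0.040 for DUSP10, 0.0030 for KLF6 and 0.081 for DUSP4, and the BCL6 difference was 0.0047 beside dexamethasone and 0.71 beside filanesib. HSD11B1 ran from 0.77 to 0.98 and CXCL10 from 1.64 to 2.37 over the 4 backgrounds. Without replicates 1 and 3 of pomalidomide alone, the averages were 0.33 for BCL6, 0.39 for ICAM1 and 0.22 for RHOB, and these no longer passed with fewer arrays (adjusted p of 0.0532, 0.104 and 0.0818). The paralogues DUSP10, DUSP4, IRS1 and KLF6 passed here while DUSP1, IRS2 and KLF9 did not, and the difference between paralogues was not tested.

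The genes whose pattern over the 8 group means lay closest to that of FKBP5 were STK33, EEF1AKMT2, ZYG11B, NOM1 and KPNA4. Their root mean square distance from FKBP5, after each gene's own mean was subtracted, was 0.048 to 0.055, against 0.18 for the scatter of FKBP5 around its own mean. For IRS2 they were PIM1, LEF1, ARHGEF1, ZNF507 and CIZ1, at 0.065 to 0.10, against 0.24 for IRS2. No member was among the 5 closest, by construction, and the ranking is a description of 8 points in these arrays.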

How the data were processed

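Total RNA of the tumours was labelled with biotin and hybridised to Affymetrix arrays, 24 in all, per the labels' protocols. The deposited values are log2 expression levels of probe sets, which the authors computed by RMA in Affymetrix Expression Console, as the submitters' processing notes say. RMA corrects background, equalises the distributions of the arrays and summarises probes, so a shift common to most genes is removed. No software version is given in the sources used here. Gene names came from GEO's platform annotation, which named a single gene for 16098 of 53617 probe sets. The other 37519, without a symbol or with more than 1, were not tested by gene. Where a gene had several probe sets (779 genes), the one with the highest mean was kept, which left 14884 genes. Of these, 11727 were annotated with a RefSeq mRNA record (NM) and were taken as protein-coding.

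The groups were compared by limma 3.58.1 (R 4.3.3). One model with 8 group means over 24 arrays left 16 residual degrees of freedom, and eBayes moderated its variances. All tests are two-sided, with Benjamini-Hochberg adjustment over all genes of a comparison and a threshold of 0.05. An average effect is the mean of a drug's 4 differences, with minus without it, over the backgrounds of the other drugs. Precision is limited by the number of arrays, with a median SE of 0.14 between 2 groups and 0.071 for an average. Intervals are 95% intervals of the model, unadjusted. Spreads of groups are SD with n = 3. The dexamethasone average was also fitted to simulated data with planted differences and independent noise, equal on all arrays for a given gene. That check does not cover the wider spread of the arrays of pomalidomide alone.

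The 10 genes and the lists were chosen with earlier results of these data known. Named genes are all 10 members, up to 3 genes of each list with the smallest p for the dexamethasone average, list genes past the threshold for it or for a change in it (there were none), and the 5 genes closest to FKBP5 and to IRS2 in group means. Alternatives were every probe set, further quantile normalisation, centring, omission of dim genes, array weights, another variance prior, the replicate block, the compared groups alone, protein-coding genes alone, and the omission of arrays.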

Additional observations from a re-analysis of the deposited data

How the results depend on the processing

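Over the omission of each of 24 arrays and the 9 or 10 other settings run for each comparison, limma called 0 members in each comparison with and without dexamethasone and in both tests of a change in it. For the pomalidomide average, omissions called 0 to 1 member, KLF9 without replicate 3 of control or of dexamethasone alone, and the other settings called 0. The number of genes called for the dexamethasone average was 2 in all, and it was 0 with every probe set tested, with protein-coding genes only, and without replicates 1 and 3 of pomalidomide alone. It was 1 after further quantile normalisation and with dim genes omitted, 6 with array weights, and 0 to 2 over the omissions of 1 array. With the replicate number as a block it was 0, and no member passed in any comparison. Arrays of the same number correlated, as deviations from group means, at -0.32 to 0.31 (median -0.024, 84 pairs). Of 24 arrays 5 correlated best with their own number. These values over all genes did not show a pairing by number and cannot exclude one.

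Signs near 0 turned. With array weights the dexamethasone average was -0.075 for PER1 and 0.035 for PIK3IP1. Without replicates 1 and 3 of pomalidomide alone it was -0.077 for PER1, and the change of the dexamethasone difference by pomalidomide was 0.091 for PIK3IP1. Over omissions the average ran from -0.064 to 0.049 for PER1, from -0.057 to 0.13 for DUSP1 and from -0.10 to 0.0088 for PIK3IP1. The change by pomalidomide ran from -0.012 to 0.095 for ZBTB16, from -0.051 to 0.32 for DDIT4 and from -0.15 to 0.12 for PIK3IP1. Averages of FKBP5, ZBTB16, KLF9, SGK1, DDIT4, TXNIP and IRS2 stayed above 0 in each setting that tested the probe set used, while their size moved. DDIT4 averaged 0.10 with array weights, against 0.28 in the reported fit, and FKBP5 averaged 0.10 without replicates 1 and 3 of pomalidomide alone, against 0.16. The cause of these changes was not tested.

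Counts over all genes moved more than those of the members. Over the settings other than omissions they ran from 128 to 330 for the filanesib average (208 in the reported fit), from 615 to 1210 for the pomalidomide average (723), from 2 to 400 for pomalidomide against control (294, and 23 to 828 when 1 array was omitted) and from 0 to 82 for the triple combination against pomalidomide plus dexamethasone (1). For dexamethasone against control they ran from 0 to 27 (1), beside filanesib from 0 to 17 (1) and beside pomalidomide from 0 to 1 (1), the last reaching 105 when 1 array was omitted. For filanesib beside dexamethasone they ran from 0 to 66 (3) and for pomalidomide beside dexamethasone from 2 to 28 (4).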
